A study of Mus musculus with 2 samples.

Results

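Broad accessible regions are the longest stretches of open chromatin in an ATAC-seq table of mouse liver. They were chosen by length, as the distinct regions whose end lay at least 1500 bp beyond their start, and 716 of 69549 regions met this. Their lengths run from 1500 to 3756 bp around a median of 1667 bp, whereas the shorter regions have a median of 386 bp. Length follows from where peaks were called and merged in these same libraries, so the length and whatever moves with the number of reads describe the choice and are given with no test. In ATAC-seq, open DNA is cut and tagged by the transposase Tn5, and the tagged fragments are sequenced. One library came from the pooled livers of 4 *Mettl3* flox/flox mice and the other from the pooled livers of 4 *Mettl3*-HKO mice, which are *Mettl3* flox/flox Alb-Cre+/-. *Mettl3* encodes the catalytic subunit of the RNA m6A methyltransferase, and Alb-Cre places the recombinase under the albumin promoter, which is active in hepatocytes. All mice were C57BL/6, 8 weeks old and fed normal chow, and both groups carry the floxed allele. The flox/flox mice have no Cre, so the effects of Cre and of the deletion cannot be told apart. Each group is a single pool, so nothing checks the spread between mice, no p-value is given, and intervals cover counting error only. In whole liver, a lower signal from fewer cells of a type and one from less open DNA per cell cannot be told apart.

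In the genome, nucleosomes are displaced at active promoters, enhancers and some heavily transcribed gene bodies. Promoters rich in CpG dinucleotides, which serve most housekeeping and regulatory genes, tend to hold a wide stretch of open DNA around the start of transcription. Promoters of strongly tissue-restricted genes, such as those for the plasma proteins that hepatocytes secrete, are often poor in CpG and open over a narrower stretch.

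The promoter sequences below show both kinds. Each is the RefSeq window from 250 bases before to 50 bases after a transcription start on GRCm38.p6, written 5′ to 3′ on the strand of the gene, with every CpG in capitals. The first 4 belong to promoters inside broad regions. *Slc39a10*, a zinc importer, had the highest read density of the broad regions on assembled chromosomes apart from the ribosomal RNA pseudogene described further on (chr1:46853569-46853868, minus strand). *Arid1b*, a subunit of the SWI/SNF chromatin remodelling complex, had the longest region at a promoter (chr17:4994824-4995123, plus strand). *Bhlhe41*, a repressor of the circadian clock (chr6:145865371-145865670, minus strand), and *Plin4*, a lipid droplet coat protein (chr17:56109733-56110032, minus strand), had some of the lowest ratios of *Mettl3*-HKO over flox/flox. The last 3 belong to genes whose 3′ end lies in a broad region: the linker histone gene *H1f3* (chr13:23554782-23555081, plus strand), named *Hist1h1d* in the deposited table, *Ahsg*, which encodes the plasma protein fetuin-A (chr16:22891765-22892064, plus strand), and *Alb*, which encodes albumin (chr5:90460620-90460919, plus strand).
Slc39a10: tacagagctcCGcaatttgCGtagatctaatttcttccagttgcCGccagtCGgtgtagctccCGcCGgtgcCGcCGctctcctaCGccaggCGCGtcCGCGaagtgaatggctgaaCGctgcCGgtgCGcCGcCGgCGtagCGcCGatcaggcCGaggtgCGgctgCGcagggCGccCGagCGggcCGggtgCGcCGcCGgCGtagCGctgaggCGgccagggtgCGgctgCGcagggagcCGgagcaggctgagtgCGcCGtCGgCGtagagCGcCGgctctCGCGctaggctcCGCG
Arid1b: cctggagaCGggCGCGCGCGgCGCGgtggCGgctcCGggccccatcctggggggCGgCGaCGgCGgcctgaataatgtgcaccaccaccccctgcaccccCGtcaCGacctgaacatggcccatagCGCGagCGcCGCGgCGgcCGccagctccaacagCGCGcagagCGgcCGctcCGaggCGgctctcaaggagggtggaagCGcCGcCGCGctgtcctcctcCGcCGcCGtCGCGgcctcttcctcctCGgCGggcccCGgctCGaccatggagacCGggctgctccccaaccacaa
Bhlhe41: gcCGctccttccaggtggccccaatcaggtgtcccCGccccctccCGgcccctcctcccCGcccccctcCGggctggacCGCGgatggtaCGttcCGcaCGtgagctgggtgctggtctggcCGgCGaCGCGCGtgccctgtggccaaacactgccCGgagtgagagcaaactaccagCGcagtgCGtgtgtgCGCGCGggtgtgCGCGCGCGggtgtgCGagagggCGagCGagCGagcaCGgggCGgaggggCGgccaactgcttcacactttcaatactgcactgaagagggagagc
Plin4: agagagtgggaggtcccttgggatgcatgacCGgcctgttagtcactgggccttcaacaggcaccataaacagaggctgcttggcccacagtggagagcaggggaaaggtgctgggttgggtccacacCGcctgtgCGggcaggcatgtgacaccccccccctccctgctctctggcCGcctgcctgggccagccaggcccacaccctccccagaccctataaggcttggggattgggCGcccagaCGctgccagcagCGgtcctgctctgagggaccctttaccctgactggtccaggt
H1f3: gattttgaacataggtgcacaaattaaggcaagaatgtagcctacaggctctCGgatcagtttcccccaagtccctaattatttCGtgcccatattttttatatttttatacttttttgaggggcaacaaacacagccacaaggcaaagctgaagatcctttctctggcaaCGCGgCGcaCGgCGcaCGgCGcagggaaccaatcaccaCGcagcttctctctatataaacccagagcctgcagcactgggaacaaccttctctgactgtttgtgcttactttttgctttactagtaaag
Ahsg: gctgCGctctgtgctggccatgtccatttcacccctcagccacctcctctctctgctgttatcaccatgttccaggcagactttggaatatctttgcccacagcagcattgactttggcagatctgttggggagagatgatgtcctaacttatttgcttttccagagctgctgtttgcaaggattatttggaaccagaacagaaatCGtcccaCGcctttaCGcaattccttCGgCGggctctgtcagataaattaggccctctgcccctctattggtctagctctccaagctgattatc
Alb: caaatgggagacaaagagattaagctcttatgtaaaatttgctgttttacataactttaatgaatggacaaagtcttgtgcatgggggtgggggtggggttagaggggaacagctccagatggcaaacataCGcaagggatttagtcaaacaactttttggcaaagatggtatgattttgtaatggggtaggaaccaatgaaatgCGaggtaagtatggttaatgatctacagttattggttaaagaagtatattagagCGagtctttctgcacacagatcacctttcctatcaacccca

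The *Slc39a10* window holds 47 CpGs, that of *Arid1b* 42 and that of *Bhlhe41* 32, but that of *Plin4* only 7. The *Ahsg* window holds 6 CpGs and the *Alb* window 3. The *H1f3* window holds 10. CpG-rich and CpG-poor promoters thus both occur among broad regions, and the numbers over all of them follow below.

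Both libraries were sequenced to a similar depth. Library totals, worked out from the deposited RPM values (a count scaled by the size of its library), were 52826202 for flox/flox and 58038305 for *Mettl3*-HKO. Of these, 16764348 and 12919369 counts fell on regions of the table. The promoter region of *Mettl3* had 566 and 392 counts (log2 ratio −0.66), but an open promoter says nothing of deleted exons, and the genotype cannot be checked there. Ratios are log2 of *Mettl3*-HKO over flox/flox, with 1 read added to each count and scaled to those totals. On this scale the median of all regions was −0.38, so a value near −0.38 is typical of the table. The broad regions carried 2.62% of the flox/flox total and 1.77% of the *Mettl3*-HKO total, on 3.59% of the bases in regions. Of the counts on regions they held 8.26% and 7.97%, which are nearly equal. Among the marker genes of liver cell types, all 8 hepatocyte markers had a promoter region, against 7 of 8 for endothelial cells, 5 of 8 for cholangiocytes, 2 of 8 for macrophages, 2 of 8 for stellate cells and 0 of 8 for lymphocytes. The hepatocyte markers' promoter regions summed to 81.1 RPM in flox/flox and 47.3 RPM in *Mettl3*-HKO, those of endothelial markers to 2.90 and 6.89 RPM, those of macrophage markers to 1.59 and 3.19 RPM, those of stellate markers to 13.8 and 3.02 RPM, and those of cholangiocyte markers to 20.4 and 16.4 RPM. Marker signal therefore differed between the libraries, and the part of cell composition in the ratios of broad regions was not tested.

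The first question was where the broad regions lie. At promoters, taken as a centre within 1 kb of the closest transcription start site (TSS), lay 541 of the 716, or 75.6% (95% Wilson interval 72.3 to 78.6%), against 20.1% of the 68833 shorter regions. The gap was small among regions of equal signal. Of shorter regions with the same mean RPM, averaged over bins of 0.5 on the log2 scale with the broad regions as weights, 72.5% lay at promoters. When mean reads per base was matched instead, the share of the shorter regions was 45.2%, so the outcome depends on which signal is held equal. Of the 541 regions at promoters, 535 held the TSS itself, or 98.9%, against 76.4% of shorter promoter regions, a share that the length limit and the 1 kb window nearly fix. In 331, or 61.2%, the centre lay downstream of the TSS, against 58.6%.

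**Figure D1:**
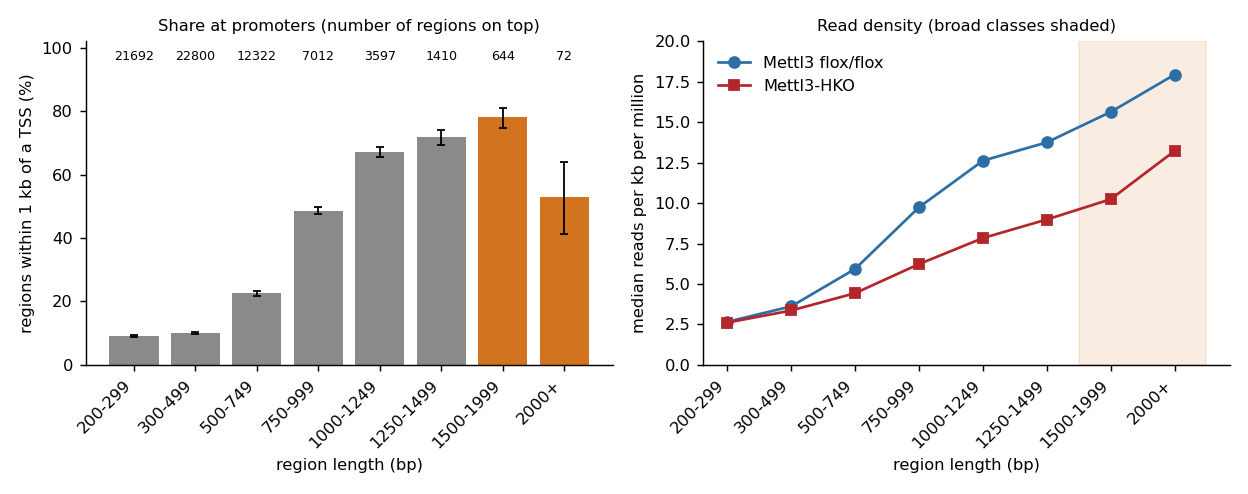
Left, the percentage of regions within 1 kb of a TSS (y axis) by region length in bp (x axis), with 95% Wilson intervals and the number of regions on top; broad classes are orange. Right, the median read density of each class in RPM per kb (y axis) in the flox/flox (circles) and *Mettl3*-HKO (squares) libraries. The promoter share climbs to 78.1% in the 644 regions of 1500 bp to just under 2000 bp and is 52.8% in the 72 regions of 2000 bp or more, while density increases with length in both libraries.

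The share at promoters did not keep increasing with length. It was 78.1% among the 644 regions shorter than 2000 bp and 52.8% among the 72 regions of 2000 bp or more, of which 38 lay at promoters. Of the 10 longest, only *Arid1b* (3038 bp) and *Nr3c1* (2914 bp), which encodes the glucocorticoid receptor, met the promoter window. *Tsc22d2* (3006 bp), a member of the TSC22 family, had its centre 1103 bp from the TSS, just beyond the window. Likewise 35 of the 175 broad regions away from promoters held a RefSeq transcription start. Their median distance to a TSS was 10683 bp, 51 lay within 5 kb and 19 beyond 50 kb. By the gene the table lists first, 103 of the 175 had their centre outside genes, 20 in a first intron and 42 in another intron.

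A length limit splits a continuum. Just inside it were *Brpf3* (1500 bp, log2 ratio −0.72), which encodes a subunit of a histone acetyltransferase complex, a region without a gene symbol on chromosome 3 (1500 bp, −1.10) and *Lclat1* (1501 bp, −0.77), a lipid acyltransferase. Just outside were *Prkce* (1499 bp, −0.20), a protein kinase C isoform, *Acnat1* (1499 bp, 0.69), an acyl-CoA transferase, and a region without a symbol on chromosome 2 (1498 bp, −0.62).

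Broad regions were also denser in reads. Their median density was 16.0 RPM per kb in flox/flox and 10.5 in *Mettl3*-HKO, against 4.07 and 3.53 in shorter regions. At promoters the medians were 16.7 and 10.7 for broad regions and 9.09 and 5.96 for shorter ones. Away from promoters they were 14.2 and 9.65, against 3.51 and 3.22. The contrast in density was thus wider away from promoters than at them. Broad regions held a median of 7 MACS2 summits, with 3 to 15 in each, against 2 in shorter regions, and summits per kb were alike at 4.01 and 4.31. At the same mean RPM the shorter regions were necessarily denser, with 29.5 RPM per kb in flox/flox and 19 in *Mettl3*-HKO, against 18.2 and 11.8 for the broad ones.

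The 5 densest broad regions include some that reads may share with other copies. The longest region of the table, on chr17:39843006-39846761, spans a copy of the 18S ribosomal RNA sequence that RefSeq names *Rn18s-rs5* and had 185313 counts in flox/flox and 156949 in *Mettl3*-HKO. It alone held 13.4% and 15.2% of all counts on broad regions. A region on the unplaced scaffold JH584304.1 followed with 27720 and 20932 counts. In all, 3 broad regions lie on unplaced scaffolds and 3 near the end of chromosome 9, and the placement of their reads is uncertain. The other 3 of the 5 densest lie at promoters on assembled chromosomes. *Slc39a10* had 6226 and 4214 counts, or 73.2 and 45.1 RPM per kb. A region over *Gm6410* on chromosome 8 had 5257 and 3693 counts. The region shared by *Mkks*, a chaperonin-like protein of the primary cilium, and *Slx4ip*, whose starts it holds together, had 4641 and 2809 counts.

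Promoters inside broad regions were rich in CpG, as were shorter promoter regions of the same signal. A RefSeq start lay in 433 of the 541 broad promoter regions, which gave 546 windows. Their median GC content was 67.3%, with 28 CpGs and a ratio of observed to expected CpG of 0.86. The 9677 windows in shorter promoter regions had medians of 61.7%, 22 CpGs and 0.79, and all 32851 RefSeq windows had 52.7%, 7 CpGs and 0.38. At the same mean RPM the shorter promoters reached 64.8%, 26.0 CpGs and 0.85. A window with GC above 50% and a ratio above 0.6 made up 83.9% of broad promoters, 72.9% of shorter ones, 86.3% of shorter ones of the same signal and 33.3% of all windows.

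Short motifs, 6 in all, were searched on both strands of these windows. GGGCGG, the core of Sp/KLF binding sites, was in 77.3% of the broad promoters, 67.2% of the shorter ones, 77.1% of shorter ones of the same signal and 35.7% of all windows. CCGGAAG, an ETS-type sequence, was in 13.4% of the broad promoters (95% Wilson interval 10.8 to 16.5%), against 19.5% of the shorter ones, 20.7% at the same signal and 8.86% of all windows. CACGTG, an E-box, was in 11.4%, 10.9%, 10.9% and 7.15% of these groups in the same order. CCAAT was in 36.6% (32.7 to 40.8%), 38.8%, 41.7% and 37.4%. TATAAA was in 6.78% (4.96 to 9.20%), 6.40%, 4.67% and 13.6%. The share at the same signal thus lay outside the interval of the broad promoters for CCGGAAG and CCAAT, which were rarer in broad promoters, and for TATAAA, which was more frequent. TGACGTCA, the cyclic AMP response element, was in 2.93%, 3.49%, 4.36% and 1.79%. Of the printed windows, those of *Arid1b* and *Bhlhe41* hold GGGCGG, that of *Bhlhe41* also CACGTG, and that of *H1f3* TATAAA. A broad region is at least 5 times as long as a window, so the motifs describe only the bases next to the start.

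Several genes can share a broad region. Of the 433 broad promoter regions with a RefSeq start, 110 held the starts of 2 or more genes, or 25.4%, against 16.3% of shorter promoter regions with a start. Over all broad promoter regions, with or without a RefSeq start, the share was 20.3%, and at the same mean RPM it was 20.1% in shorter ones. The median log2 ratio was −0.62 for those with 2 or more starts and −0.62 for those with 1. Conversely, 4 genes had 2 broad regions each, namely *Insig1*, *B330016D10Rik*, with 1 region at its start, *AC149090.1* on a scaffold, and a gene without a symbol at the end of chromosome 9.

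The second question was which genes carry a broad promoter. Over all 13163 genes with a promoter region 4.11% had a broad one, and the lists below are read beside that value. RNA processing and translation factors stood at 15 of 46 genes with a promoter region, or 32.6%, and other genes of the same promoter signal, in bins of mean RPM, had 14.2%. The 3 longest were *Ddx3x* (1992 bp), an RNA helicase, *Pabpc1* (1924 bp), the cytoplasmic poly(A)-binding protein, and *Hnrnpa2b1* (1831 bp), an hnRNP protein. *Ddx3x* had 1179 counts in flox/flox and 905 in *Mettl3*-HKO (log2 ratio −0.52), *Pabpc1* 2772 and 1926 (−0.66), and *Hnrnpa2b1* 2268 and 1698 (−0.55). The others were *Hnrnpa1*, *Hnrnpd*, *Hnrnpdl*, *Hnrnph1*, *Hnrnpu*, *Srsf2*, *Son*, *Sfpq*, *Eef1a1*, *Eef2*, *Eif4a1* and *Eif4g2*. On the scale of the library totals all 15 were lower in *Mettl3*-HKO, from −0.78 for *Hnrnpd* to −0.32 for *Sfpq*, and none by 2-fold or more, beside 97.4% of all broad promoters below 0 and 11.6% at least 2-fold lower, so the common direction is that of the background. Relative to the median of all regions these ends lay at −0.41 and 0.06. Of 47 cytosolic ribosomal protein genes with a promoter region 0 had a broad one, against 5.03% of other genes of the same promoter signal. The median promoter signal was 9.70 RPM for this list, 21.2 RPM for RNA processing and translation factors and 6.62 RPM for all genes. Their longest was *Rps2* with 1380 bp, and the median of the list was 956 bp, against 1342 bp for RNA processing and translation factors and 809 bp for all genes.

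Immediate early and stress response genes followed with 9 of 45, or 20%, against 14.6% of other genes of the same promoter signal. *Dusp6* (2197 bp), a phosphatase that switches off ERK, had 2695 and 2809 counts (−0.08). *Cdkn1a* (2195 bp), the cell cycle inhibitor p21, had 1784 and 984 counts (−0.99). *Hspa8* (1966 bp), a constitutive heat shock chaperone, had 2905 and 2340 counts (−0.45). The other 6 were *Hsp90ab1*, *Fosl2*, *Egr1*, *Ier5*, *Klf6* and *Zfp36l2*. The list's median ratio was −0.42, and its values ran from −0.99 for *Cdkn1a* to −0.01 for *Egr1*, an immediate early transcription factor with 2500 and 2719 counts.

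Among circadian clock genes 3 of 18 had a broad promoter, or 16.7%, against 8.31% of other genes at the same signal. *Clock* (1784 bp), the activator of the clock, had 1575 and 1098 counts (−0.66). *Nfil3* (1693 bp), a repressor of D-box genes, had 1910 and 1085 counts (−0.95). *Bhlhe41* (1564 bp) had 1269 and 420 counts and a ratio of −1.73 (95% Clopper-Pearson interval −1.89 to −1.57). Its relative *Bhlhe40* had a longer region (2644 bp) centred 1033 bp from the TSS, with 4121 and 3263 counts (−0.47). A broad region listed under *Gm17597* holds the RefSeq start of *Tef*, a PAR bZIP factor of the clock output, and had 2149 and 1778 counts (−0.41). Both *Bhlhe40* and *Bhlhe41* encode clock repressors.

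Hepatocyte transcription factors and nuclear receptors had 5 of 39, or 12.8%, against 7.19% at the same signal. *Nr3c1* had 3211 and 1779 counts (−0.99). *Nfe2l2* (2109 bp), the NRF2 regulator of antioxidant genes, had 3889 and 2564 counts (−0.74). *Cebpb* (1899 bp), a factor of the acute phase and gluconeogenesis, had 2226 and 1708 counts (−0.52). The other members were *Foxa2* (1650 and 792 counts, −1.19), a pioneer factor of the liver lineage, and *Nr2f6* (1568 and 1170 counts, −0.56). Of these 5 promoters *Foxa2* was at least 2-fold lower, as were 11.6% of all 541 broad promoters. With the median of all regions set to 0 its ratio was −0.82, short of 2-fold. A broad region that holds the RefSeq start of *Thrb*, a thyroid hormone receptor, on chr14:17659631-17661386, is listed under another gene and so is not counted among the 5. It had 1253 and 623 counts (−1.14, or −0.77 with that median set to 0).

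Chromatin regulators had 5 of 57, or 8.77%, against 6.59% at the same signal. The 3 longest were *Arid1b* (1455 and 1075 counts, −0.57), *Smarca2* (1365 and 761 counts, −0.98), an ATPase of SWI/SNF, and *Kdm6a* (1434 and 908 counts, −0.79), a demethylase of H3K27. *Ep300* and *Kdm2a* were the others, and *Brd2*, a reader of acetylated histones, had a broad region centred 1448 bp from its TSS. Insulin, growth hormone and growth factor signalling had 2 of 27, or 7.41%, against 6.00% at the same signal. Both were at or just beyond 2-fold lower, beside 11.6% of all broad promoters. *Akt2* (2253 bp), a kinase of the insulin pathway, had 1570 and 862 counts (−1.0), and *Pik3r1* (1578 bp), the regulatory subunit of PI3-kinase, 1607 and 839 counts (−1.07). With the median of all regions set to 0 they had −0.62 and −0.70, and neither was 2-fold lower. *Irs1*, an insulin receptor substrate, had a broad region 7568 bp from its TSS with 1100 and 678 counts (−0.83).

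Lipid, bile acid and carbohydrate metabolism had 3 of 52 genes, or 5.77%, against 6.74% at the same signal. *Insig1* (1901 bp), which retains the SREBP regulators of lipid synthesis in the endoplasmic reticulum, had 2189 and 1645 counts at its promoter (−0.55). *Dgat2* (1565 bp), the last enzyme of triglyceride synthesis, had 1393 and 791 counts (−0.95). *Plin4* (1533 bp) had 1752 and 486 counts, a ratio of −1.98 (−2.13 to −1.84). *Plin4* had the lowest ratio of all 541 broad promoters. Secreted liver proteins had 2 of 50 genes, the coagulation factor gene *F10* (2046 and 1110 counts, −1.02) and *Lcat*, the cholesterol esterifying enzyme of plasma (1260 and 624 counts, −1.15). This share, 4%, stood against 2.43% at the same signal. Of the 48 genes of this list with a region away from the promoter, 7 had a broad one there, or 14.6%, beside 0.810% of all 21593 genes with such a region. One of the 7 is *Afp*, the fetal albumin relative, which has the TSS closest to the region over the 3′ end of *Alb*. The 14.6% was matched neither for signal nor for the number of regions per gene. Other lists also stood above 0.810% away from promoters. Insulin and growth factor signalling had 8%, clock genes 5.56%, metabolism 4.26%, RNA processing 3.85% and chromatin regulators 2.56%. Hepatocyte transcription factors, immediate early genes and ribosomal protein genes had 0. Of 28 small nucleolar RNA host genes and long noncoding RNAs, 14 had a RefSeq start in a region and 0 in a broad one, beside 5.17% of all 11276 genes with a RefSeq start in a region, too few genes to tell these apart.

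Of the cell type markers, none of the 8 hepatocyte markers with a promoter region had a broad promoter, the longest being *Hnf4a* with 702 bp, and *Apoa1* had a broad region 2373 bp downstream of its TSS. *Sox9*, a factor of cholangiocytes, had a broad promoter (1721 bp, 520 and 397 counts, −0.52). The 7 endothelial markers with a promoter region reached 384 bp at most, the 2 macrophage markers 550 bp and the 2 stellate markers 1321 bp. *Sox9* was thus the only marker on these lists with a broad promoter. Over all genes with a promoter region 4.11% had a broad one, and the marker lists are too short to be told apart from that share.

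Gene Ontology terms that the deposited table assigns to its genes allowed a wider view. They were picked after the values were seen, and 460 genes with a broad promoter and 10021 with only shorter promoter regions carried any term. Transcription factor activity was assigned to 45 of the 460, or 9.78% (7.39 to 12.8%), against 4.59% of the others and 5.45% at the same mean RPM. Chromatin binding was assigned to 5.22%, 2.65% and 3.82%. RNA binding was assigned to 15.0%, 10.3% and 13.7%. Mitochondrion was assigned to 28 of the 460, or 6.09% (4.24 to 8.66%), against 11.7% and, at the same signal, 14.2%. Oxidoreductase activity was assigned to 1.52% (0.739 to 3.11%), 4.32% and 4.30%. For transcription factor activity the share at equal signal lay below the interval of the broad promoters, and for mitochondrion and oxidoreductase activity above it. For RNA binding it lay within the interval of 12 to 18.6%. No test was made of these terms. The 45 genes assigned transcription factor activity ran in ratio from −1.36 for *L3mbtl3* to −0.01 for *Egr1*, with a median of −0.60. They include *Sp1* (−0.45), *Sp3* (−0.61), *Gabpa* (−0.74), *Klf7* (−0.62), *Rel* (−0.64), *Stat6* (−0.37) and *Esr1* (−0.21).

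The third question was how the broad regions differ between the genotypes. Their median log2 ratio was −0.63 (order-statistic interval −0.65 to −0.60), against −0.37 in shorter regions. Of the 716, 681 (95.1%) were below 0 and 35 above, beside 64.8% of all regions below 0. Among shorter regions of the same mean RPM 96.3% were below 0, so the direction is not particular to broad regions, and it rests on scaling to the library totals. At least 2-fold lower in *Mettl3*-HKO were 98, or 13.7%, beside 18.3% of all regions, and at least 2-fold higher were 5, or 0.698%, beside 13.2% of all regions. With the median of all regions set to 0, 20 were lower, or 2.79%, beside 7.89%, and 8 were higher, or 1.12%, beside 20% of all regions. On both scales the shares past 2-fold were below those of the whole table in each direction, and the interquartile range was 0.41 against 1.25 in shorter regions, most of which have fewer counts. Averaged over bins of the same mean RPM the range was 0.43 in both broad and shorter regions. The level depends on the scaling: set against the strongest 10% of promoter regions, the median of the broad regions was 0.015.

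Shorter regions of the same signal had nearly the same ratios. At the same mean RPM the broad regions had a weighted median of −0.63 and the shorter ones −0.65, a difference of 0.02. Matched on mean reads per base the difference was 0.003. At promoters it was 0.02, and away from them 0.005. The share at least 2-fold lower was 13.7% in broad regions and 15.3% in shorter ones of the same mean RPM. The share at least 2-fold higher was 0.699% and 0.158%. Within the broad regions, length and ratio were nearly unrelated (Spearman's rho 0.05 over 716 regions that share the same libraries, a description only).

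**Figure D2:**
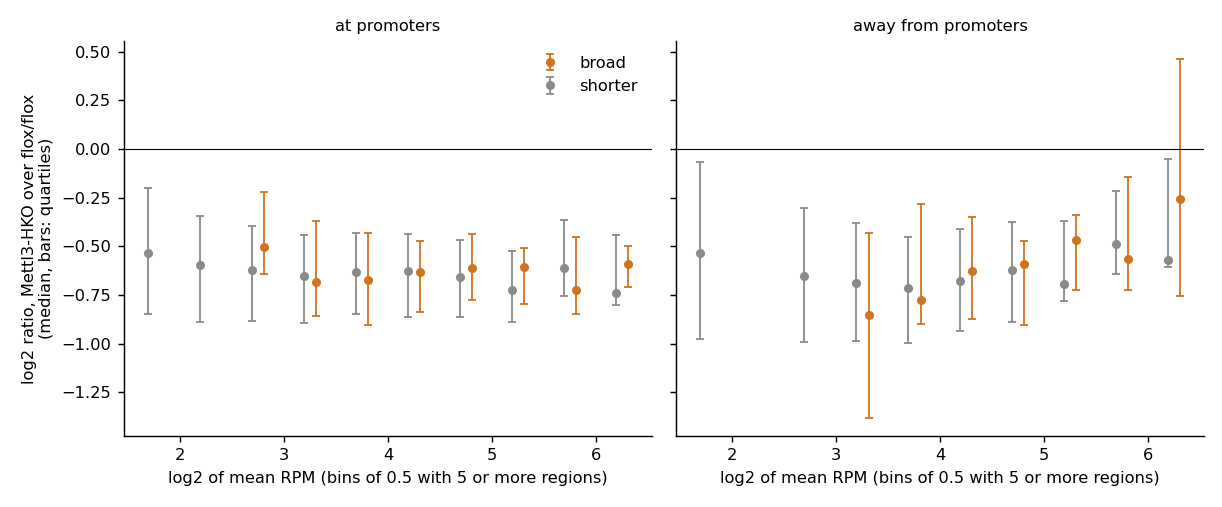
Median log2 ratio of *Mettl3*-HKO over flox/flox (y axis) in bins of log2 mean RPM (x axis) for broad (orange) and shorter (grey) regions, at promoters (left) and away from them (right); bars span the quartiles over regions, and bins with fewer than 5 regions of a group are not drawn for it. In every bin with 5 or more regions of both groups, the broad median lies between the quartiles of the shorter regions.

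The regions at and away from promoters differed more in spread than in level. At promoters the median was −0.63 with an interquartile range of 0.37, and away from them −0.63 with a range of 0.57. At least 2-fold lower were 63 of 541 promoters (11.6%) and 35 of 175 others (20%). At least 2-fold higher were 0 of 541 and 5 of 175. In shorter regions 16.5% at promoters and 18.8% elsewhere were at least 2-fold lower, and 4.23% and 15.7% higher. Shorter regions of the same mean RPM had 14.2% and 17.9% lower, and only 0.0577% and 0.362% higher. The lack of gains at broad promoters is thus that of promoters of like signal. Away from promoters the broad regions had the larger share of gains, 2.86%. By the TSS of the table every broad promoter thus stayed below a 2-fold gain on this scale, although the region over *Hist1h1d* (*H1f3*), described next, holds a RefSeq start. The highest, *Hist1h4j*, a histone H4 gene, had 281 and 423 counts (0.45).

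**Figure D3:**
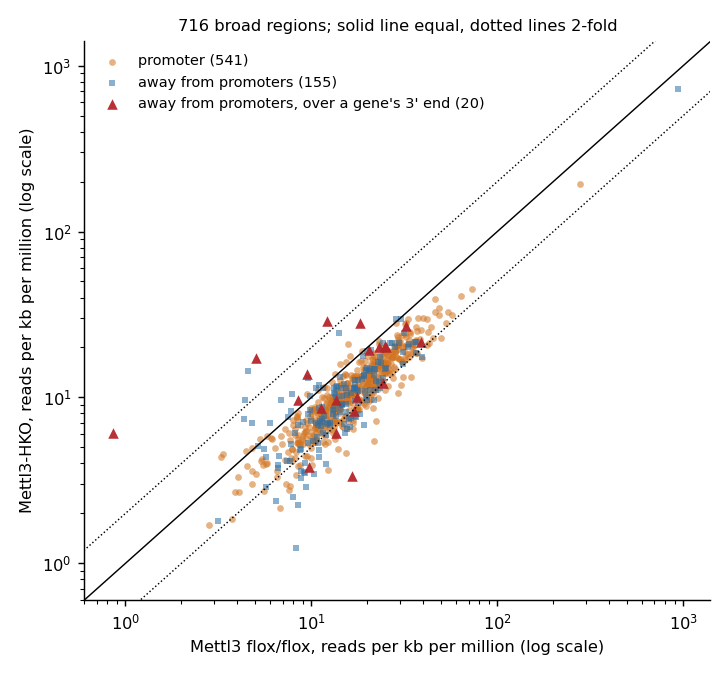
Read density of the 716 broad regions in flox/flox (x axis) and *Mettl3*-HKO (y axis), in RPM per kb on log scales; circles are promoters, squares are regions away from promoters and triangles those of the latter that hold the 3′ end of a gene. The bulk lies below the line of equal density, and the 5 regions above the upper 2-fold line include triangles but no circle.

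The 5 broad regions with the highest ratios all had their centre over 1 kb from the TSS given in the table. The highest lay over the 3′ end of *Kng1*, which encodes the plasma kinin precursor kininogen, on chr16:23081062-23083078. It had 91 counts in flox/flox, where no peak was called, and 714 in *Mettl3*-HKO, a ratio of 2.82 (95% Clopper-Pearson interval 2.52 to 3.17). The next covered the whole of the linker histone gene *Hist1h1d* (*H1f3*) on chr13:23554864-23556383, with 405 and 1523 counts, a ratio of 1.77 (1.62 to 1.94). RefSeq places a start of this gene inside the region, so it counts as distal only by the TSS of the table. A region 530 bp beyond *Selenop*, which encodes the selenium carrier of plasma, lay in an intron of *Ccdc152* on chr15:3281040-3282868. It had 439 and 1521 counts, a ratio of 1.65 (1.5 to 1.81).

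The fourth lay over and beyond the 3′ end of *Serpina3k*, a serine protease inhibitor of plasma, on chr12:104345107-104348710. At 3604 bp it was the second longest region of all, and it had 2309 and 6060 counts, a ratio of 1.26 (1.19 to 1.33). The fifth lay in an intron of *Cep85*, a centrosomal protein gene, on chr4:134164686-134166470, with 414 and 998 counts, a ratio of 1.13 (0.97 to 1.30). *Kng1* and *Serpina3k* are on the list of secreted liver proteins. These 5 were picked by this ratio from 716 regions, and the *Kng1* region had a called peak in *Mettl3*-HKO alone, so the intervals describe counting error and test nothing.

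The lowest ratios lay both at and away from promoters, and 4 of the 5 lowest are given here. A region 947 bp beyond *Insig1*, on chr5:28079609-28081193, had 691 counts in flox/flox and 114 in *Mettl3*-HKO, where no peak was called, a ratio of −2.72 (−3.03 to −2.45). It entered the table through the flox/flox peak alone, so a low ratio was favoured in advance, and it is set beside the −0.55 of the *Insig1* promoter as a description. *Plin4* had −1.98. A region at the start of *Zfp638*, a zinc finger protein gene, on chr6:83866950-83868454, had 676 and 196 counts, a ratio of −1.92 (−2.16 to −1.69). The promoter of *Paqr9*, a membrane receptor family member, had 1091 and 357 counts, a ratio of −1.74 (−1.92 to −1.57). *Insig1* and *Plin4* are on the list of lipid, bile acid and carbohydrate metabolism.

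**Figure D4:**
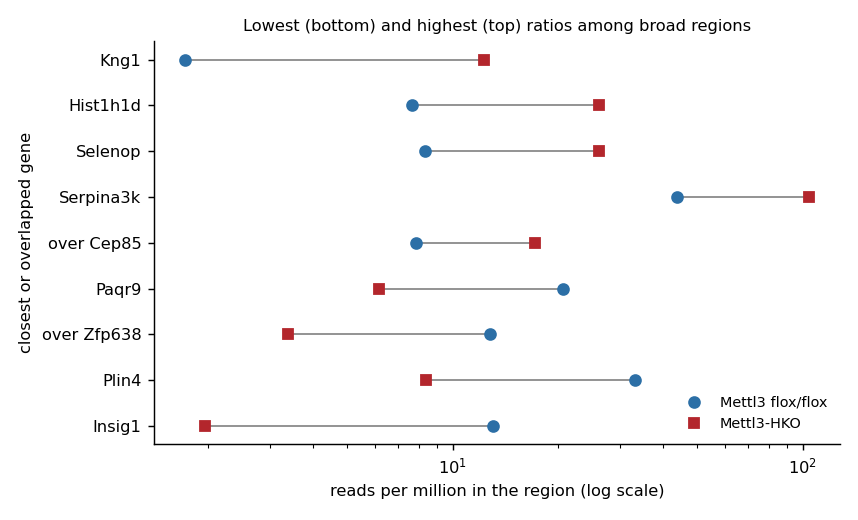
RPM (x axis, log scale) in flox/flox (circles) and *Mettl3*-HKO (squares) for 4 of the 5 lowest and the 5 highest ratios among broad regions, named by the closest or overlapped gene (y axis). The *Kng1* region had 91 counts in flox/flox and 714 in *Mettl3*-HKO, and the *Insig1* region 691 and 114.

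The longest regions away from promoters varied in ratio. After the ribosomal RNA pseudogene (−0.38) and *Serpina3k* came a region 5306 bp upstream of *Gm10382* on chromosome 5 (3410 bp), with 1732 and 2590 counts (0.44). A region at the end of chromosome 9 (3177 bp) had 5391 and 4949 counts (−0.26). Another lay 759 bp from *Mir21a*, which encodes the microRNA miR-21 (3157 bp), with 2337 and 4489 counts (0.81). *Mir21a* lies within the protein-coding gene *Vmp1*, whose nearer end is closer still to this region. *Tsc22d2* (3006 bp) had 2842 and 1911 counts (−0.71). A region 834 bp beyond *Errfi1*, a feedback inhibitor of EGF receptor signalling (2993 bp), had 4813 and 5130 counts (−0.04). *Ahsg* (2987 bp) had 2877 and 4890 counts (0.63). Of the 10 longest regions 4 were above 0, whereas 35 of all 716 were. Of the 72 regions of 2000 bp or more, the median was −0.57. Of the 34 of these away from promoters 6 were above 0, and their median was −0.48.

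Many of the long distal regions span the 3′ end of a gene. This class was defined after the values were seen. A RefSeq protein-coding 3′ end lay in 20 of the 175 broad regions away from promoters, or 11.4%, against 239 of 54987 shorter ones, or 0.435%, and 1.53% of shorter ones of the same mean RPM. A longer region has more room for a gene end, and the part of length in this gap was not tested. The 20 regions held the 3′ ends of 21 genes, and those on the function or marker lists include *Alb*, *Apoa1*, *Ahsg*, *Serpina3k*, *Kng1*, *Igfbp1* and *Cyp2e1*. The promoter windows of the 13 genes with a RefSeq entry had a median of 6 CpGs and a ratio of observed to expected CpG of 0.33, against 0.86 in broad promoters, and 3 of the 13 passed the GC and CpG limits above.

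Ratios over 3′ ends ranged widely. Their median was −0.31 (order-statistic interval −0.85 to 0.20) with an interquartile range of 1.17, against −0.66 and 0.53 in the 155 other broad regions away from promoters. The interval of the 20 holds the median of the 155. The 239 shorter distal regions with a 3′ end had a median of −0.49 and a like spread, with an interquartile range of 1.18. At the same mean RPM, shorter distal regions had −0.57 where these 20 had −0.20. At least 2-fold higher were 3 of the 20 (15%) and at least 2-fold lower 4 (20%). Both shares are near those of all shorter distal regions, 15.7% and 18.8%. They are also near those of shorter ones with a 3′ end, 11.7% and 19.2%. Both of these groups have fewer counts, with flox/flox medians of 66 and 169 beside 1867 in the 20. In the other 155, gains of this size made up 1.29% and losses 20%. In shorter distal regions matched on mean RPM to all broad distal ones, gains made up 0.362% and losses 17.9%. Gains were thus more frequent in the 20 than in that matched group, but they number 3, in a class defined after seeing values.

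The 3′ end and the promoter of a gene often had unlike ratios. *Ahsg* had 2877 and 4890 counts at its 3′ end (0.63) but 835 and 646 at its promoter (−0.51). *Kng1* had 655 and 602 counts at its promoter (−0.26), beside 2.82 at its 3′ end. That 3′ end region entered the table through the *Mettl3*-HKO peak alone, so a high ratio was favoured in advance. *Serpina3k* had 487 and 602 counts at its promoter (0.17). In each of these genes the 3′ end had the higher ratio. *Igfbp1*, a carrier of insulin-like growth factors, and *Apoa1*, the main protein of high-density lipoprotein, had −0.20 and −0.27 at the 3′ end and −0.55 and −0.54 at the promoter. *Apob*, the protein of very low-density lipoprotein, had its broad region not at the 3′ end but 40574 bp from its TSS, with 387 and 623 counts (0.55).

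*Cyp2e1*, a cytochrome P450 of the pericentral liver, had 801 and 1009 counts at the 3′ end (0.20) and 444 and 337 at the promoter (−0.53). *Mat1a*, which makes S-adenosylmethionine in hepatocytes, had 2559 and 2652 counts (−0.08) and 1896 and 1182 (−0.82). *Ptp4a1*, a phosphatase, had 1062 and 1690 counts (0.53) and 3176 and 2733 (−0.35). The other direction also occurred.

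A region over the 3′ ends of both *Plbd2*, a lysosomal phospholipase-like protein, and *Sds*, serine dehydratase, had 950 and 409 counts (−1.35). The *Plbd2* promoter had 252 and 238 counts (−0.22) and that of *Sds* 240 and 122 (−1.11). *Alb* had 2517 and 2187 counts at the 3′ end (−0.34) and 480 and 533 at the promoter (0.02). Of the 15 genes compared, 9 had the higher ratio at the 3′ end and 6 the lower, and the median difference was 0.26. Without *Kng1* these were 8 and 6 of 14, with a median difference of 0.19. No common direction was seen.

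**Figure D5:**
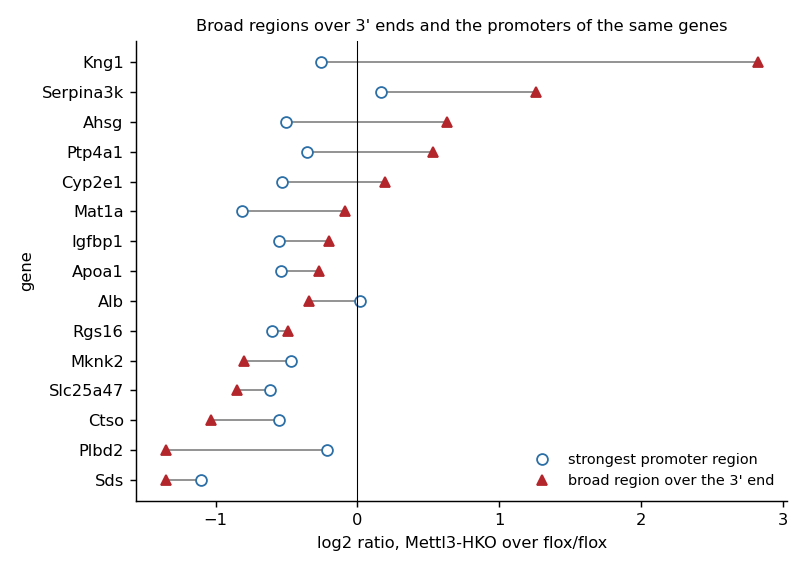
Log2 ratio of *Mettl3*-HKO over flox/flox (x axis) at the broad region over the 3′ end (triangles) and at the strongest promoter region (open circles) of the 15 genes compared (y axis). The 3′ ends spread from −1.35 for *Plbd2* and *Sds* to 2.82 for *Kng1*, and the promoters from −1.11 for *Sds* to 0.17 for *Serpina3k*.

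Further groups stood among the 35 broad regions above 0. All 5 broad regions closest to a replication-dependent histone gene were above 0. Besides *Hist1h1d* they were *Hist1h2be* (1865 and 2089 counts, 0.03), *Hist1h3a* (1362 and 1669, 0.16), *Hist1h1c* (1416 and 1714, 0.14) and *Hist1h4j*. The 4 at promoters had a median of 0.15, beside −0.66 in shorter regions of the same mean RPM, and the 37 shorter promoter regions of such genes had a median of 0.21, with 23 of 37 above 0. The higher ratio at histone genes was thus shared by their shorter promoters. This group was also named after the values were seen. Histone genes are transcribed in dividing cells, occur in near-identical copies, and the placement of reads between copies was not tested.

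A RefSeq tRNA gene is overlapped by 7 broad regions, with ratios from −0.45 to 0.03 and a median of −0.18. The highest of these, on chromosome 11 near *Plxdc1*, holds 2 tRNA genes and had 675 and 757 counts (0.03). Another on chromosome 14 holds 3 tRNA genes and had 2279 and 2391 counts (−0.07).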

How the data were processed

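Per the labels, nuclei of pooled livers were treated with Tn5 and sequenced as paired ends, giving 1 ATAC-seq library per genotype. The authors trimmed adaptors with skewer, aligned reads with BWA to GRCm38, filtered on mapping quality, and called peaks per library with MACS2, keeping duplicate reads, which makes counts less independent than counting intervals assume. The authors deposited 1 table with, for each merged region, the count and the RPM of each library. The RPM of the authors is the count plus 1, scaled to the library total, and the totals were recovered from it. The counting method, and any shift of read ends to the Tn5 cut site, are not given in the sources used here. The deposited log2 ratio was not used, and the deposited fold enrichment over the genome served only to check that starts count from 0; they are printed counted from 1.

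Of 74821 rows, 5272 repeats of a region under another gene were left out. Ratios were recomputed from the counts with 1 read added to each, on the library totals. Shares carry 95% Wilson intervals, single ratios 95% Clopper-Pearson intervals and medians order-statistic intervals over regions. Shorter regions of the same signal were compared in bins of 0.5 of log2 mean RPM, weighted by the number of broad regions. The binned comparison was also run on simulated counts, as a check of the code only. Those counts had the same typical ratio at every signal, unlike these data, so they do not show how well the matching works here. Of the 716 broad regions, 159 had no gene symbol, and 57 of these were named from a RefSeq gene with 90% reciprocal overlap. Gene 3′ ends were set for 20288 of 21896 RefSeq protein-coding genes with a known strand.

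Named are the 10 longest regions, the 5 highest and 5 lowest ratios, the 5 densest, the 5 longest away from promoters, genes with 2 broad regions, list members and the 3 on either side of the length limit. The members and lists were chosen with earlier results of these data known. Some items that this rule names are not reported here. Regions over 3′ ends, histone genes and Gene Ontology terms were chosen after their values were seen. Values were computed in Python 3.11.15 with pandas 2.3.3, numpy 2.4.6 and scipy 1.17.1, and plots drawn with matplotlib 3.10.9.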

Additional observations from a re-analysis of the deposited data

How the results depend on the processing

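With a length limit of 2000 bp, 72 regions remained. Of these 52.8% lay at promoters, the median log2 ratio was −0.57, 3 (4.17%) were at least 2-fold lower and 2 (2.78%) higher, the difference from shorter regions of the same signal was 0.11, and the median densities were 17.9 and 13.2 RPM per kb. With a limit of 1200 bp, 397 of 2642 (15.0%) were lower and 18 (0.681%) higher, beside 18.3% and 13.2% of all regions, and the densities were 14.3 and 9.30 RPM per kb. A promoter window of 500 bp gave a share of 59.6% and one of 2 kb gave 79.3%. Scaling changed the ratios most. Centred on the median of all regions the median was −0.25, with 20 lower and 8 higher, beside 7.89% and 20% of all regions. With reads in regions as totals it was −0.12, with 12 (1.68%) lower and 11 (1.54%) higher, beside 5.75% and 22.9%. Centred on the strongest 10% of promoter regions it turned to 0.015, with 8 (1.12%) lower and 16 (2.23%) higher, beside 4.13% and 26%. The other 24 values computed stayed within the interval of the value reported, or within 1.5 times a reported count, including those without the scaffolds and the ribosomal RNA pseudogene and those for regions away from promoters only, which were added after seeing the data. The difference from shorter regions had no interval of its own. It was judged against the width of the interval of the broad median, centred on the difference (−0.005 to 0.051), which leaves out the shorter regions. No paired analysis was possible because each group has 1 library, and none could be left out. Depth limits single ratios little here, since the median broad region had 1457 counts in flox/flox and 1035 in *Mettl3*-HKO, but the lack of replicates limits all of them.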

Other observations

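A RefSeq microRNA gene lies in 13 of the 541 broad promoters. Their log2 ratios ran from −1.28 at *Mir6386*, in the region of the scramblase gene *Plscr1* (711 counts in flox/flox and 321 in *Mettl3*-HKO), to −0.17 at *Mir6392*, in the region of the lipase gene *Pnpla3* (626 and 611 counts). The host promoter and the microRNA share these reads, so neither is measured alone. *Vim*, which encodes the mesenchymal intermediate filament vimentin, had a broad promoter with 353 and 418 counts (0.11). It was 1 of the 14 broad promoters above 0, of which 4 belong to histone genes.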
